A study of Mus musculus with 23 samples.

Results

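The costimulatory and immune checkpoint molecules are the surface proteins through which macrophages and other antigen-presenting cells raise or restrain T cells. The 10 genes followed here are Cd80, Cd86, Cd40, Icosl, Tnfsf9, Tnfsf4, Cd274, Pdcd1lg2, Cd276 and Havcr2. They were chosen by name, and all 10 were found among 22180 measured genes. A gene with several transcript clusters was to be read from its brightest one, but each of the 10 has 1 transcript cluster, and 9 of them lay above the first quartile of signal on all 21 sorted-cell arrays (Tnfsf4 on 20 of 21).

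The arrays were Affymetrix Mouse Gene 2.0 ST chips hybridised with RNA of cells sorted from dorsal root ganglia and nerve tissue or from neurofibroma, a benign peripheral nerve tumor. SCs (Schwann cells) were sorted as p75+ cells and macrophages by CD11b and the product of Adgre1. The neurofibroma groups came from 7-month-old Nf1fl/fl;DhhCre mice (4 macrophage and 3 SC arrays). The mutant nerve groups came from 1-month-old mice of the same genotype (5 macrophage and 3 SC arrays), which the sample labels also call neurofibroma although the study's methods place that age before tumor formation. The wild-type groups came from 1-month-old Nf1fl/fl mice, labelled Nf1+/+ (3 macrophage and 3 SC arrays), and no 7-month-old wild-type cells were analysed here, so that age and tumor cannot be told apart. DhhCre deletes Nf1 in the SC lineage, so the macrophages of all groups carry wild-type Nf1, and the sorted mutant SCs are a mixture of recombined and unrecombined cells. For 1-month-old mice the study pooled tissue of 3 to 4 animals for each of 3 sorts, while the mutant nerve macrophages have 5 arrays. Which arrays share a sort is not stated. Nothing states that each array came from separate animals, so p-values measure the spread between these arrays.

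The arrays stood on 2 levels that coincided with age. The deposited array medians were 2.92 to 3.04 for the 7-month-old arrays and 1 universal control array, and 3.74 to 3.88 for the 1-month-old arrays and the other universal control array. Only this pair of control arrays links the ages, and the values below, called corrected log2, were aligned through it gene by gene with ComBat. The SE, intervals and adjusted p of differences between the ages leave out the error of this link, except in the fit with the control pair. Comparisons of macrophages with SCs of 1 age do not cross the levels. Macrophage and SC markers separated the sorts, with a mean over 12 macrophage markers of 8.80 to 9.44 in macrophage arrays and 3.47 to 4.94 in SC arrays, and over 10 SC markers of 3.87 to 5.86 in macrophage arrays and 6.88 to 7.42 in SC arrays. Transcripts of other cells were also present in the SC arrays. The mean over 8 fibroblast markers was 4.63 to 7.26 in macrophage arrays and 7.78 to 8.98 in SC arrays, and that over 8 endothelial markers 3.58 to 5.13 in macrophage arrays and 5.68 to 7.98 in SC arrays. At the 3 stages 7 to 8 of the fibroblast and 5 to 8 of the endothelial markers were called lower in macrophages than in SCs, and their part in the differences between cell types was not tested. Seminal vesicle transcripts (mean of 7 markers 3.91 to 8.17, on the other sorted-cell arrays 2.08 to 2.58) were present on wild-type macrophage replicates 5 and 6, wild-type SC replicates 2 and 3, and neurofibroma SC replicate nf1_7m_4992.

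T cells need a second signal beside antigen. CD80 and CD86 give it through CD28, and the same ligands bind the inhibitory receptor CTLA-4. CD40 on the antigen-presenting cell receives help from T cells through CD40 ligand and works through TRAF adaptors and NF-kappaB. ICOSL, 4-1BB ligand (Tnfsf9) and OX40 ligand (Tnfsf4) sustain activated T cells. PD-L1 (Cd274) and PD-L2 (Pdcd1lg2) restrain them through PD-1, B7-H3 (Cd276) is a B7 relative found on many non-immune cells, and TIM-3 (Havcr2) is an inhibitory receptor of T cells and myeloid cells that binds galectin-9.

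RefSeq promoter windows (GRCm38.p6, 250 bases before to 50 after a start site) were at hand for 6 of the 10 genes. Those of Havcr2, Cd80 and Cd274, which were higher in corrected values of neurofibroma macrophages, and that of Cd276, which was lower, are shown. Capitals mark matches on either strand to motifs of AP-1 (TGANTCA), PU.1 (GAGGAA), the TATA box (TATAAA), the interferon response element (GAAA repeated with 2 free bases between) and NF-kappaB (GGG and TTTCC with 2 free bases between). The windows lie at chr11:46454681-46454980 (Havcr2, plus strand), chr16:38458683-38458982 (Cd80, plus strand), chr19:29367188-29367487 (Cd274, plus strand) and chr9:58554984-58555283 (Cd276, minus strand). For Cd80 and Cd274 this start site lies inside the gene span given further on.
Havcr2: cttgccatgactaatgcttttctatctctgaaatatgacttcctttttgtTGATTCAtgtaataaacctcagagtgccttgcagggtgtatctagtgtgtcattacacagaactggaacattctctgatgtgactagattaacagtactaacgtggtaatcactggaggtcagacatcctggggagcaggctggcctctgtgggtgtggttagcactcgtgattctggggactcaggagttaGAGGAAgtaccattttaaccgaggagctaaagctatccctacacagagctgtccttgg
Cd80: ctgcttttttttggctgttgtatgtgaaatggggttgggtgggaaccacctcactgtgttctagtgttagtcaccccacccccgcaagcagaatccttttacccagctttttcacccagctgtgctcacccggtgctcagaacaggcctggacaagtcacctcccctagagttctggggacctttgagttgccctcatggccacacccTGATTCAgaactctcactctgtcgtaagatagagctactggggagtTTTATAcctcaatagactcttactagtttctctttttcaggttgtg
Cd274: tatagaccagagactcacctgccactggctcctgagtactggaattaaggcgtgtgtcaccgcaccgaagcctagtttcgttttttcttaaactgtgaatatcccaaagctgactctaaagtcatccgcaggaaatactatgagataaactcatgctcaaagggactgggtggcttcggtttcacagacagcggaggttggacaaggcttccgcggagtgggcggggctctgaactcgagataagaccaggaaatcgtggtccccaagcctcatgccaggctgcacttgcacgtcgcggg
Cd276: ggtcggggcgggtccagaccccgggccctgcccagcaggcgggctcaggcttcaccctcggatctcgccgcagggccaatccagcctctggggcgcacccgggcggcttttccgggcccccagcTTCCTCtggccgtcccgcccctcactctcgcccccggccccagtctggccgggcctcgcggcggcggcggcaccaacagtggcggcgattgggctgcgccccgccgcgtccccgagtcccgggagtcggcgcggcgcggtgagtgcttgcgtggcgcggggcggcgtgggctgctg
The AP-1 letters stood in the windows of Havcr2 and Cd80 and in 7.81% of all 32851 windows. The PU.1 letters stood in those of Havcr2, Cd276 and Pdcd1lg2 and in 28.3% of all windows, and the TATA letters in that of Cd80 and in 13.6% of all. None of the 6 windows held the interferon response or NF-kappaB letters, which 3.44% and 1.63% of all windows held. None of the marked matches overlapped another. The windows also differed in CG dinucleotides, with 39 in Cd276, 26 in Icosl and 15 in Cd274, against 3 each in Havcr2, Cd80 and Pdcd1lg2 and a median of 7 over all windows. A match is a run of letters and was not tested as a binding site.

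Most of these transcripts were higher in macrophages than in SCs. In neurofibroma 5 of the 10 genes were called higher in macrophages than in SCs (limma, adjusted p under 0.05 and fold above 2), in mutant nerve 7, and in wild-type nerve 6, and none was called lower. In the same comparisons 5.91%, 5.75% and 5.03% of all genes were called higher in macrophages, and 6.50%, 7.26% and 8.94% lower. The median difference over the 10 genes was 1.55, 1.65 and 1.70 on the log2 scale in neurofibroma, mutant and wild-type nerve, against 0.02, 0.00 and 0.06 over all genes. Cd80, Cd86, Cd40, Cd274 and Havcr2 were the genes called at all 3 stages.

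**Figure D1:**
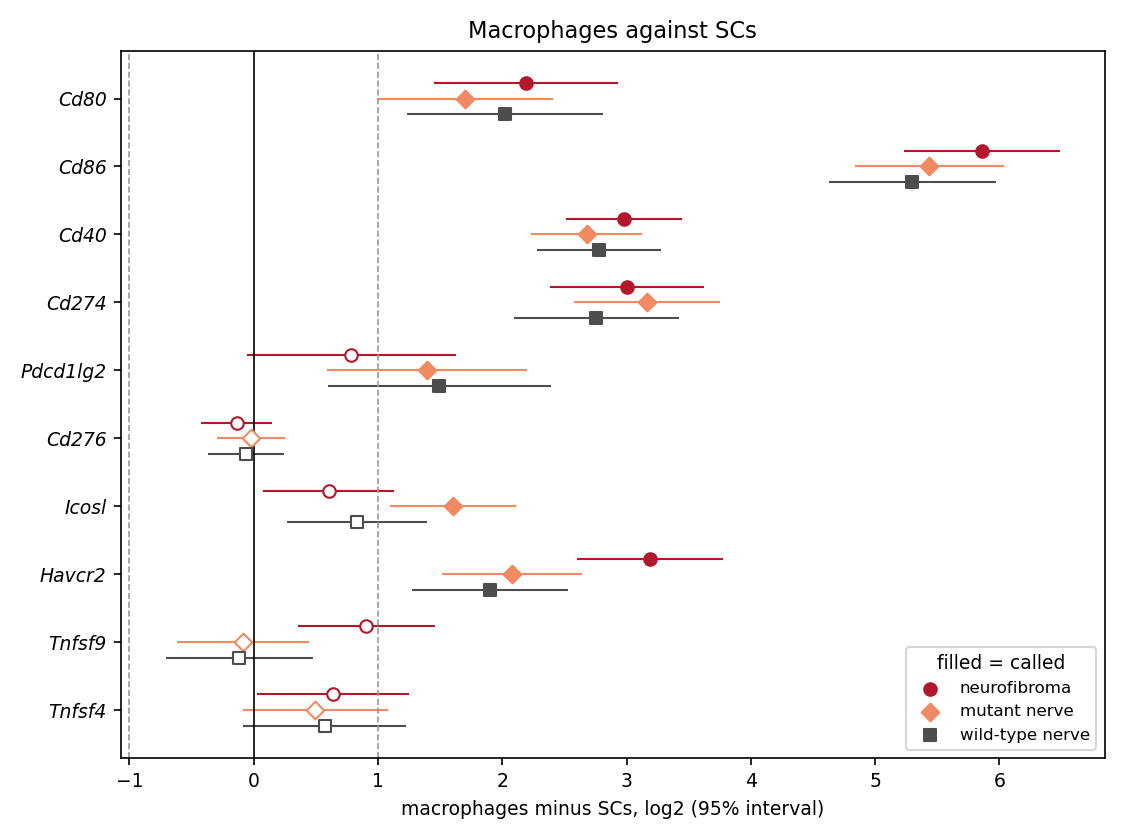
Difference between macrophages and SCs (log2, x axis) for the 10 genes (rows) in neurofibroma, mutant nerve and wild-type nerve, with 95% intervals from the limma fit of all 6 groups. Filled symbols mark called differences and dashed lines a fold of 2. Cd86 lies between 5.30 and 5.86 at every stage, and Cd276 lies at 0.

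Cd86, the B7 ligand (transcript cluster 17330203, chromosome 16, 36568956 to 36666158), separated the cell types by the widest margin of the 10. It averaged 10.91 ± 0.22 in macrophages and 5.05 ± 0.88 in SCs of neurofibroma (SD, n = 4 and 3), a difference of 5.86 (SE 0.301, adjusted p = 6.81e-12). The difference was 5.44 (SE 0.288) in mutant nerve and 5.30 (SE 0.322) in wild-type nerve. The macrophage and SC arrays did not overlap at any stage. Cd40 (transcript cluster 17379659, chromosome 2, 165055614 to 165071654) was 2.98 (SE 0.223), 2.68 (SE 0.213) and 2.78 (SE 0.239) higher in macrophages of neurofibroma, mutant and wild-type nerve. Cd274 (transcript cluster 17358544, chromosome 19, 29362107 to 29388095) was 3.00 (SE 0.296), 3.16 (SE 0.283) and 2.76 (SE 0.316) higher in the same order. For both genes the differences at the 3 stages lay within each other's 95% intervals.

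Pdcd1lg2, which lies 22824 bases beyond Cd274 on chromosome 19 (transcript cluster 17358552, 29410919 to 29472927), behaved otherwise. It was called higher in macrophages than in SCs of mutant nerve (1.39, SE 0.385, adjusted p = 0.00833) and of wild-type nerve (1.49, SE 0.430, adjusted p = 0.0111), and in neurofibroma the difference was 0.79 (95% interval -0.05 to 1.63, adjusted p = 0.205). Without the wild-type macrophage replicates 5 and 6, which carried seminal vesicle transcripts, the wild-type difference was 0.52, and that of Cd80 was 1.53. That fit left 1 wild-type macrophage array, replicate 4. It kept wild-type SC replicates 2 and 3, which carried such transcripts too. The wild-type call of Pdcd1lg2 was lost without replicate 5 alone (1.21, adjusted p = 0.0646) and without replicate 6 alone (1.28, adjusted p = 0.0553). Without mutant SC replicate 9 the mutant call of Pdcd1lg2 was also lost, as it was with the label batch as a term (1.304, SE 0.503, adjusted p = 0.0722). Icosl (transcript cluster 17234786, chromosome 10, 78069368 to 78079525) was called higher in mutant nerve macrophages, by 1.604 (SE 0.241, adjusted p = 2.49e-05). Its differences of 0.60 in neurofibroma (adjusted p = 0.102) and 0.83 in wild-type nerve (adjusted p = 0.0224) missed the adjusted p or the fold. Without wild-type SC replicate 3 or wild-type macrophage replicate 5, Icosl was called in wild-type nerve as well.

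Cd276 (transcript cluster 17527719, chromosome 9, 58524300 to 58555033) was measured at like levels in both cell types. Its macrophage minus SC difference was -0.14 (95% interval -0.43 to 0.15) in neurofibroma, -0.03 (-0.30 to 0.25) in mutant nerve and -0.06 (-0.37 to 0.25) in wild-type nerve, so a 2-fold difference lay outside each interval. Tnfsf9, the gene of 4-1BB ligand (transcript cluster 17338959, chromosome 17, 57105287 to 57107758), differed by -0.09 (-0.62 to 0.44) in mutant nerve and -0.12 (-0.71 to 0.47) in wild-type nerve. In neurofibroma it was 0.91 higher in macrophages (SE 0.265, adjusted p = 0.0145), short of the 2-fold criterion. Without neurofibroma SC replicate nf1_7m_s4481 or macrophage replicate nf1_7m_4486 it passed that criterion. Tnfsf4 (transcript cluster 17218701, chromosome 1, 161395438 to 161418206) was 0.64, 0.50 and 0.57 higher in macrophages of neurofibroma, mutant and wild-type nerve, with adjusted p of 0.144, 0.214 and 0.176. The 95% intervals of -0.09 to 1.08 in mutant and -0.08 to 1.22 in wild-type nerve include both 0 and a 2-fold difference. Without neurofibroma SC replicate nf1_7m_4486, the highest of its group at 4.25, the neurofibroma difference was 1.193 (adjusted p = 0.00198).

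**Figure D2:**
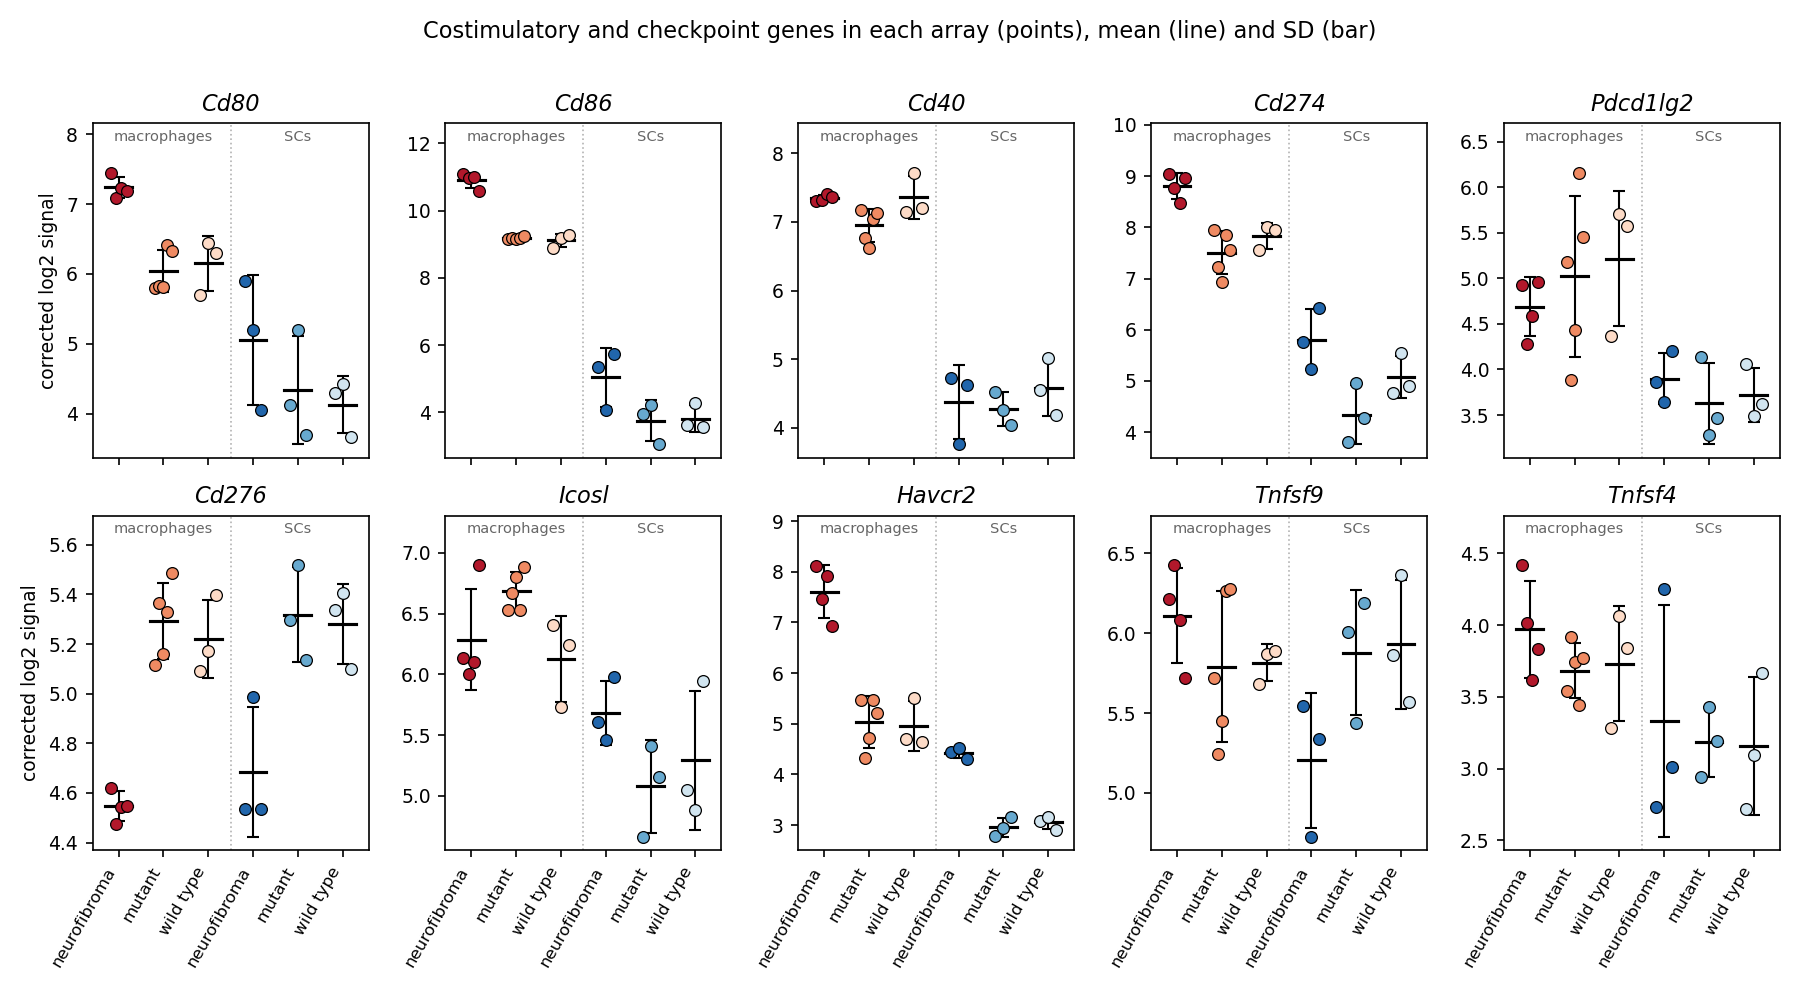
Corrected log2 signal (y axes, each with its own range) of the 10 genes in every array, for macrophages (red) and SCs (blue) of neurofibroma, mutant nerve and wild-type nerve. Points are arrays, lines are group means and bars are SD. Havcr2, Cd86, Cd80 and Cd274 are higher in each neurofibroma macrophage array than in any 1-month-old macrophage array, and Cd276 is lower.

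In corrected values neurofibroma macrophages expressed more Havcr2, Cd86, Cd80 and Cd274 than macrophages of mutant nerve. These 4 of 10 genes were called higher and none lower, in a comparison that called 4.97% of all genes (2.68% higher and 2.29% lower). The median difference over the 10 genes was 0.36, against -0.04 over all genes. Against wild-type nerve 3 of the 10 were called higher, Havcr2, Cd86 and Cd80, beside 6.25% of all genes (3.36% higher and 2.89% lower). By adjusted p alone, without the fold criterion, 6 of the 10 passed against mutant nerve and 5 against wild-type nerve, as did 34.8% and 35.4% of all genes. Neurofibroma arrays all above mutant nerve arrays, which the called genes share, were found for 3097 of the 22180 genes, and all below for 3424. Against wild-type nerve arrays these counts were 4062 and 5109. Both comparisons share the 4 neurofibroma arrays. The calls against mutant nerve also depend on the processing. With the label batch as a term only Havcr2 stayed called, and with the control pair in the fit none did. Cd274 was at 0.43 (adjusted p = 0.179) with quantile normalization in place of ComBat and at -0.10 (adjusted p = 0.685) in the deposited values.

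Havcr2, which encodes TIM-3 (transcript cluster 17248809, chromosome 11, 46454931 to 46481255), had the widest difference of the 10. It measured 8.11, 7.47, 7.91 and 6.93 in neurofibroma macrophages, 5.47, 4.32, 4.71, 5.47 and 5.21 in mutant nerve macrophages and 4.70, 5.51 and 4.65 in wild-type nerve macrophages. In corrected values every neurofibroma array stood more than 1 log2 unit above every 1-month-old array. In the deposited values the margin was narrow, with neurofibroma replicate nf1_7m_4486 at 6.18 and wild-type replicate 5 at 6.03. The difference was 2.57 against mutant nerve (5.94-fold, SE 0.288, adjusted p = 3.06e-05) and 2.65 against wild-type nerve (6.28-fold, SE 0.327, adjusted p = 8.49e-05).

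Cd86 measured 11.08, 10.96, 11.01 and 10.58 in neurofibroma macrophages, 9.17, 9.18, 9.16, 9.18 and 9.25 in mutant nerve macrophages and 8.89, 9.18 and 9.27 in wild-type nerve macrophages. The 1-month-old arrays lay close together and the neurofibroma arrays lay well above them. The difference was 1.72 against mutant nerve (3.29-fold, SE 0.117, adjusted p = 7.04e-07) and 1.79 against wild-type nerve (3.47-fold, SE 0.134, adjusted p = 2.4e-06). With quantile normalization in place of ComBat it was 0.95 (adjusted p = 4.2e-04) and 0.96 (adjusted p = 0.00107), each short of the fold of 2. A smooth correction, which took the control difference as a curve over signal level and not gene by gene, gave 0.97 (adjusted p = 2.44e-04) against mutant nerve, also short of it. In the deposited values the groups overlapped, neurofibroma replicate nf1_7m_4486 lying at 9.67 and the 1-month-old arrays at 9.34 to 9.74.

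Cd80, the other CD28 ligand (transcript cluster 17325608, chromosome 16, 38457430 to 38495958), measured 7.45, 7.09, 7.24 and 7.18 in neurofibroma macrophages, 5.80, 5.83, 5.82, 6.41 and 6.32 in mutant nerve macrophages and 5.70, 6.45 and 6.30 in wild-type nerve macrophages. The neurofibroma arrays again lay above all 1-month-old arrays, while in the deposited values they overlapped. The difference was 1.20 against mutant nerve (2.30-fold, SE 0.176, adjusted p = 2.22e-04) and 1.09 against wild-type nerve (2.13-fold, SE 0.201, adjusted p = 0.00127). Without wild-type replicate 4 the second call was lost to the fold criterion, as it was with quantile normalization (0.80, adjusted p = 0.025).

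Cd274, which encodes PD-L1, measured 9.05, 8.78, 8.47 and 8.96 in neurofibroma macrophages, 7.95, 7.23, 6.94, 7.86 and 7.56 in mutant nerve macrophages and 7.55, 8.00 and 7.94 in wild-type nerve macrophages. All neurofibroma arrays were above the others, by a narrower margin against wild-type nerve, while in the deposited values they overlapped. The difference was 1.31 against mutant nerve (2.47-fold, SE 0.201, adjusted p = 3.06e-04). Against wild-type nerve it was 0.98 (1.98-fold, SE 0.229, adjusted p = 0.00515), just short of the 2-fold criterion. Without any one of wild-type replicate 5, wild-type replicate 6 or neurofibroma replicate nf1_7m_s4481 it passed that criterion. The call against mutant nerve was lost when the arrays were only centred on their medians (0.75, adjusted p = 0.016), with quantile normalization (0.43, adjusted p = 0.179) and with the smooth correction (0.50, adjusted p = 0.0967), and in the deposited values the difference from wild-type nerve was -0.42 (adjusted p = 0.135).

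Its neighbour Pdcd1lg2 was not called. Pdcd1lg2 measured 4.92, 4.27, 4.59 and 4.96 in neurofibroma macrophages, 5.17, 3.89, 4.44, 6.16 and 5.45 in mutant nerve macrophages and 4.37, 5.70 and 5.58 in wild-type nerve macrophages. The 1-month-old arrays spanned more than 2 log2 units and enclosed the neurofibroma arrays. The difference was -0.33 (95% interval -1.18 to 0.51) against mutant nerve and -0.53 (-1.49 to 0.44) against wild-type nerve.

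The other members moved less in macrophages. Cd40 measured 7.31 to 7.41 in neurofibroma, 6.63 to 7.18 in mutant nerve and 7.15 to 7.72 in wild-type nerve macrophages, a difference of 0.40 (SE 0.143, adjusted p = 0.0426) against mutant nerve and -0.01 (adjusted p = 0.977) against wild-type nerve. In the deposited values with no correction Cd40 was at -0.73 (adjusted p = 7.82e-04) against mutant nerve and was called lower against wild-type nerve, at -1.14 (adjusted p = 8.43e-05). Cd276 was lower in neurofibroma macrophages, at 4.47 to 4.62, than in mutant nerve (5.11 to 5.49) and wild-type nerve macrophages (5.09 to 5.40). Its difference of -0.75 (SE 0.106, adjusted p = 1.79e-04) against mutant nerve and -0.67 (SE 0.120, adjusted p = 0.00104) against wild-type nerve did not reach the fold of 2, while in the deposited values it was called lower than in mutant nerve, at -1.05. Icosl differed by -0.40 (adjusted p = 0.113) and 0.16 (adjusted p = 0.578), Tnfsf9 by 0.32 (adjusted p = 0.261) and 0.30 (adjusted p = 0.358), and Tnfsf4 by 0.29 (adjusted p = 0.237) and 0.24 (adjusted p = 0.388), against mutant and wild-type nerve in that order.

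These calls rest on how the 2 array levels are linked. The control RNA held little of the called genes, with deposited levels on its 7-month and 1-month array of 3.14 and 4.44 for Cd86, 2.80 and 4.21 for Cd274, 2.42 and 3.73 for Havcr2, and 3.29 and 3.90 for Cd80. Its difference between the arrays was -1.31, -1.41, -1.31 and -0.62 for these genes, against a median of -0.60 over all transcript clusters. When the control pair entered the fit with its own error, the differences from mutant nerve were 2.58 for Havcr2 (SE 0.593, adjusted p = 0.0826), 1.71 for Cd86 (SE 0.693, adjusted p = 0.475), 1.31 for Cd274 (SE 0.625, adjusted p = 0.596) and 1.16 for Cd80 (SE 0.760, adjusted p = 0.8). No member was then called in any neurofibroma comparison, and these fits called 0.225% of all genes in macrophages against mutant nerve and 0.207% against wild-type nerve. With no correction at all, so that a drop of the whole level by 7 months stayed in the values, Havcr2 was still called (1.27, adjusted p = 0.00157), Cd80 (0.54, adjusted p = 0.0178) and Cd86 (0.41, adjusted p = 0.0104) fell short of the fold, and Cd274 was at -0.10 (adjusted p = 0.685).

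**Figure D3:**
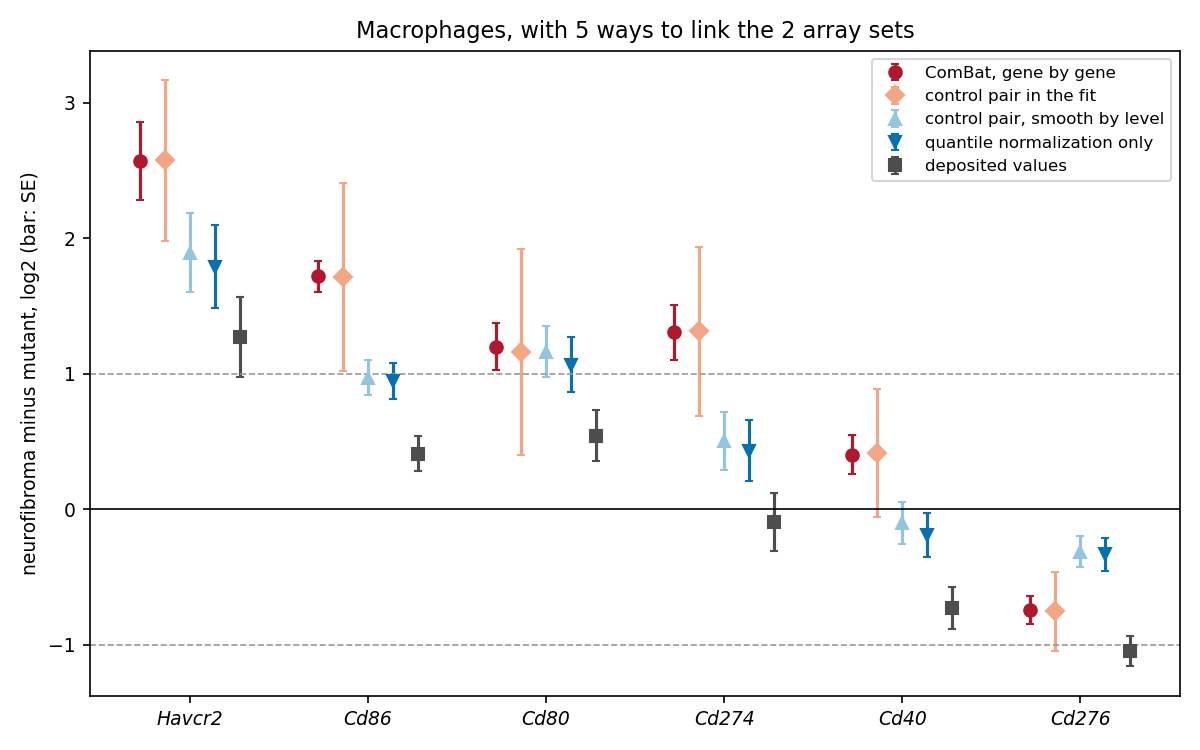
Difference between neurofibroma and mutant nerve macrophages (log2, y axis) of 6 genes under 5 ways of linking the 7-month and 1-month array levels, with SE bars from limma. Dashed lines mark a fold of 2. Havcr2 stays above 1 in all 5, while Cd274 ranges between -0.10 and 1.31.

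The label batch also coincides with these groups, since all mutant nerve macrophages belong to label batch 1 and all neurofibroma and wild-type nerve macrophages to label batch 2. The comparison with wild-type nerve therefore lies within 1 label batch. With the label batch as a term, estimated from the SCs, the differences from mutant nerve were 2.74 for Havcr2 (adjusted p = 5.92e-04), 1.05 for Cd86 (adjusted p = 0.0981), 1.03 for Cd274 (adjusted p = 0.133) and 0.84 for Cd80 (adjusted p = 0.306).

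Marker genes also moved beside these calls. The mean over 12 macrophage markers was 9.19 to 9.44 in neurofibroma and 8.84 to 9.06 in mutant nerve macrophages. Of the 12, Itgam and Fcgr1 were called higher and Cd163 lower in neurofibroma, and Itgam, which encodes the sort marker CD11b, averaged 9.15 in neurofibroma, 7.25 in mutant nerve and 6.89 in wild-type nerve macrophages. The SC list stood at 3.87 to 4.17 in neurofibroma and 4.71 to 5.86 in mutant nerve macrophages, and 8 fibroblast markers at 4.63 to 4.82 in neurofibroma and 4.99 to 7.19 in mutant nerve macrophages. The endothelial list stood at 3.58 to 3.84 in neurofibroma and 3.58 to 5.11 in mutant nerve macrophages, and 8 smooth muscle and pericyte markers at 3.60 to 3.69 in neurofibroma and 3.98 to 5.14 in mutant nerve macrophages. Of 9 measured dendritic cell markers only Itgax was called, higher by 1.47 (adjusted p = 0.00448) in neurofibroma than in mutant nerve, and the list mean was 5.03 to 5.33 in neurofibroma and 4.70 to 5.22 in mutant nerve macrophages. The defining markers Flt3 (0.04), Zbtb46 (-0.28) and Xcr1 (-0.83) were not called. The part of these markers in the result was not tested. Fewer cells of a type and less RNA per cell cannot be told apart in sorted bulk RNA.

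In SCs, Havcr2 and Cd274 were called higher in neurofibroma than in mutant nerve, 2 of the 10 genes beside 5.64% of all genes (2.55% higher and 3.09% lower). Against wild-type nerve only Havcr2 was called, beside 6.47% of all genes (2.40% higher and 4.06% lower). By adjusted p alone 3 and 2 of the 10 passed, with 16.6% and 18.3% of all genes. The median over the 10 genes was 0.44 against mutant and 0.28 against wild-type nerve, with -0.04 over all genes in both.

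Havcr2 measured 4.43, 4.52 and 4.31 in neurofibroma SCs, 2.78, 2.93 and 3.16 in mutant nerve SCs and 3.07, 3.17 and 2.91 in wild-type nerve SCs. The groups were tight and the neurofibroma SCs lay above both 1-month-old groups, while in the deposited values they overlapped both. In neurofibroma SCs 16.1% of all genes lay wholly above mutant nerve SCs and 16.5% wholly above wild-type nerve SCs. The difference was 1.46 against mutant nerve (2.76-fold, SE 0.150, adjusted p = 6.26e-04) and 1.37 against wild-type nerve (2.58-fold, SE 0.150, adjusted p = 6.95e-04). In the deposited values with no correction it was 0.16 (adjusted p = 0.378) and 0.07 (adjusted p = 0.706), and in the fit with the control pair 1.47 (adjusted p = 0.477) and 1.38 (adjusted p = 0.462). Quantile normalization gave 0.96 (adjusted p = 0.00913) and 0.83 (adjusted p = 0.0116), and the smooth correction 0.95 (adjusted p = 0.00808) and 0.86 (adjusted p = 0.00916), all short of the fold of 2.

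Cd274 measured 5.76, 5.24 and 6.43 in neurofibroma SCs, 3.80, 4.95 and 4.27 in mutant nerve SCs and 4.77, 5.54 and 4.91 in wild-type nerve SCs. The neurofibroma SCs lay above mutant nerve SCs, as for 16.1% of all genes, and overlapped wild-type nerve SCs. In the deposited values they overlapped both. The difference was 1.47 against mutant nerve (2.76-fold, SE 0.353, adjusted p = 0.021) and 0.74 against wild-type nerve (SE 0.353, adjusted p = 0.174). The call was lost without any one of mutant replicates 8 and 10 or neurofibroma replicates nf1_7m_s4481 and nf1_7m_4992, at an adjusted p of up to 0.0681. It was also lost when the arrays were only centred (0.92, adjusted p = 0.0885), with quantile normalization (0.81, adjusted p = 0.188), with the smooth correction (0.77, adjusted p = 0.184), in the fit with the control pair (1.47, adjusted p = 0.516) and in the deposited values (0.06, adjusted p = 0.884), where the difference from wild-type nerve was -0.66 (adjusted p = 0.124).

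Cd86 measured 5.35, 4.06 and 5.74 in neurofibroma SCs, 3.97, 4.23 and 3.06 in mutant nerve SCs and 3.62, 4.28 and 3.55 in wild-type nerve SCs. Neurofibroma replicate nf1_7m_4486 stood with the 1-month-old arrays and the other two above them. The difference of 1.296 against mutant nerve (SE 0.428, adjusted p = 0.0642) and 1.23 against wild-type nerve (adjusted p = 0.0711) was not called. Without that replicate it was 1.86 (adjusted p = 0.0123) and 1.80 (adjusted p = 0.0119), and in the fit of all 6 groups, which estimates the spread from both cell types, the adjusted p was 0.00622 and 0.00794.

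Cd276 was lower in neurofibroma SCs, as in macrophages, at 4.53, 4.99 and 4.53, against 5.30, 5.52 and 5.14 in mutant nerve SCs and 5.34, 5.41 and 5.10 in wild-type nerve SCs. The difference was -0.63 (SE 0.177, adjusted p = 0.0362) against mutant and -0.60 (SE 0.177, adjusted p = 0.0419) against wild-type nerve, short of the fold of 2. Tnfsf9 measured 5.54, 4.73 and 5.34 in neurofibroma SCs, 6.01, 5.44 and 6.18 in mutant nerve SCs and 5.86, 6.36 and 5.57 in wild-type nerve SCs, with differences of -0.67 (adjusted p = 0.125) and -0.73 (adjusted p = 0.0981). Tnfsf9 was called lower against mutant and wild-type nerve when the arrays were only centred (-1.01 and -1.11), with quantile normalization (-1.23 and -1.21), with the smooth correction (-1.14 and -1.19) and in the deposited values (-1.87 and -1.92). Cd80, Cd40, Icosl, Pdcd1lg2 and Tnfsf4 differed by -0.21 to 0.92 with adjusted p of 0.179 to 0.838.

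**Figure D4:**
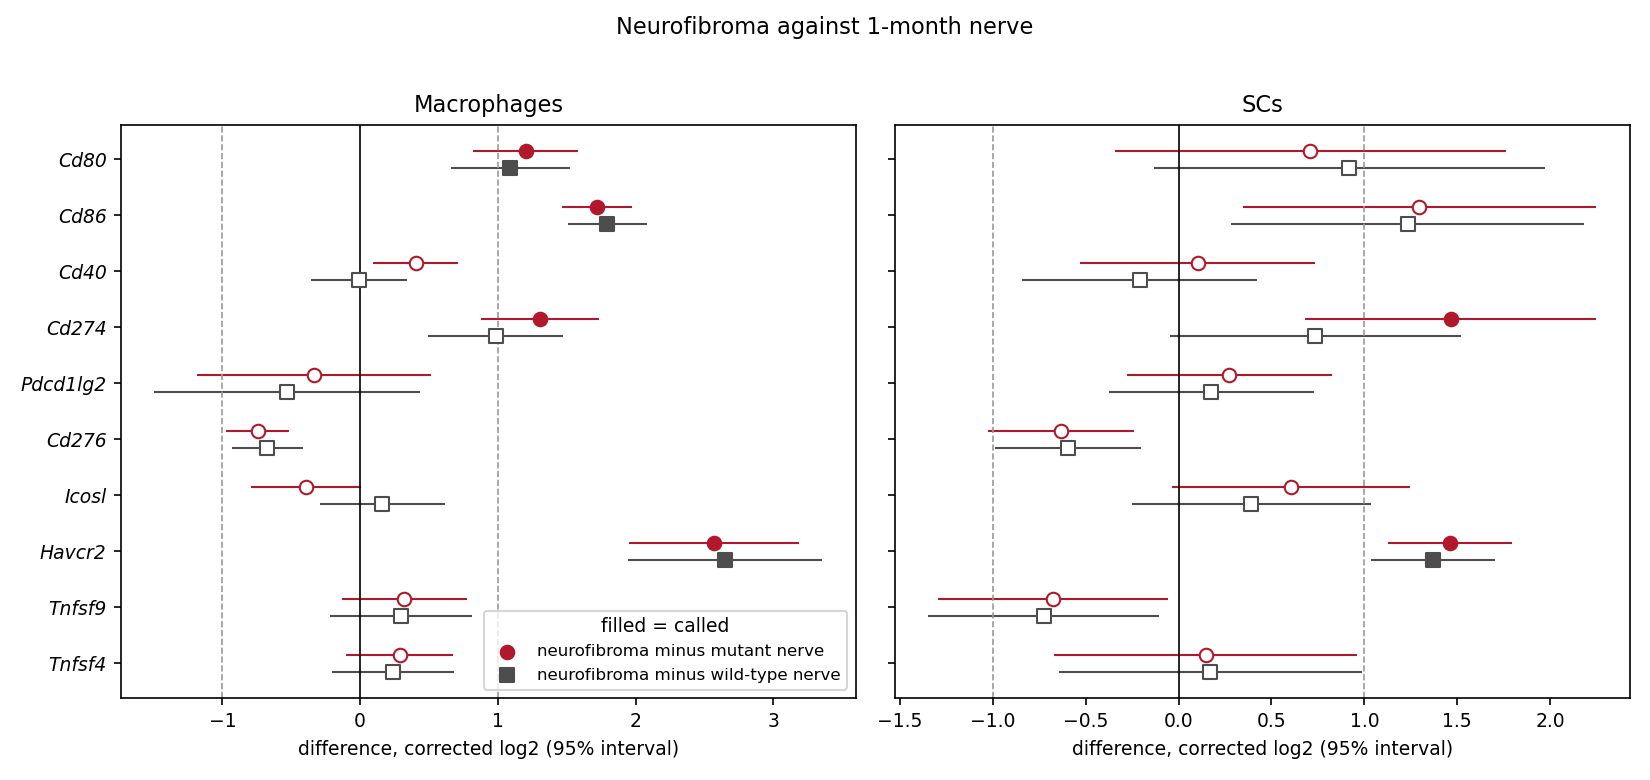
Difference between neurofibroma and mutant nerve (red) and between neurofibroma and wild-type nerve (grey) for the 10 genes, in macrophages (left) and SCs (right), as corrected log2 with 95% intervals. The intervals leave out the error of the control pair that links the ages, and with that error no member was called. Filled symbols mark calls without it and dashed lines a fold of 2. Havcr2 is called in all 4 comparisons, and Cd276 lies below 0 in all 4 without reaching a fold of 2.

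Macrophage markers moved with the SC result. Their mean over 12 genes was 4.63 to 4.94 in neurofibroma SCs, 3.64 to 3.94 in mutant nerve SCs and 3.47 to 4.26 in wild-type nerve SCs. Of the 12, 5 were called higher in neurofibroma than in mutant nerve SCs, and Lyz2, a lysozyme of myeloid cells, averaged 8.01 in neurofibroma, 4.79 in mutant and 5.08 in wild-type nerve SCs. The receptor gene Csf1r was at 4.18, 3.94 and 3.83 in the same order and was not called. All 3 neurofibroma SC arrays were above the 6 others in both the marker mean and Havcr2. The lists of other cells moved between the same arrays. The endothelial mean was 6.22 to 7.98 in neurofibroma SCs, 5.68 to 6.70 in mutant nerve SCs and 6.24 to 6.89 in wild-type nerve SCs. Of its 8 markers 1, Emcn, was called higher than in mutant and in wild-type nerve. The mast cell mean over 7 markers was 2.81 to 3.21, 2.92 to 4.96 and 2.95 to 3.74 in the same order. Of these 7 markers 1 was called lower than in mutant nerve and 1 lower than in wild-type nerve. The smooth muscle and pericyte mean was 4.74 to 5.27 in neurofibroma SCs, 6.86 to 7.70 in mutant nerve SCs and 6.54 to 7.21 in wild-type nerve SCs, with 6 of 8 markers called lower than in mutant nerve and 5 of 8 lower than in wild-type nerve. The fibroblast mean was 7.78 to 8.20 in neurofibroma SCs, 8.48 to 8.92 in mutant nerve SCs and 8.60 to 8.98 in wild-type nerve SCs, with 1 of 8 markers called higher and 4 lower in both comparisons. The part of these transcripts in the SC result was not tested.

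**Figure D5:**
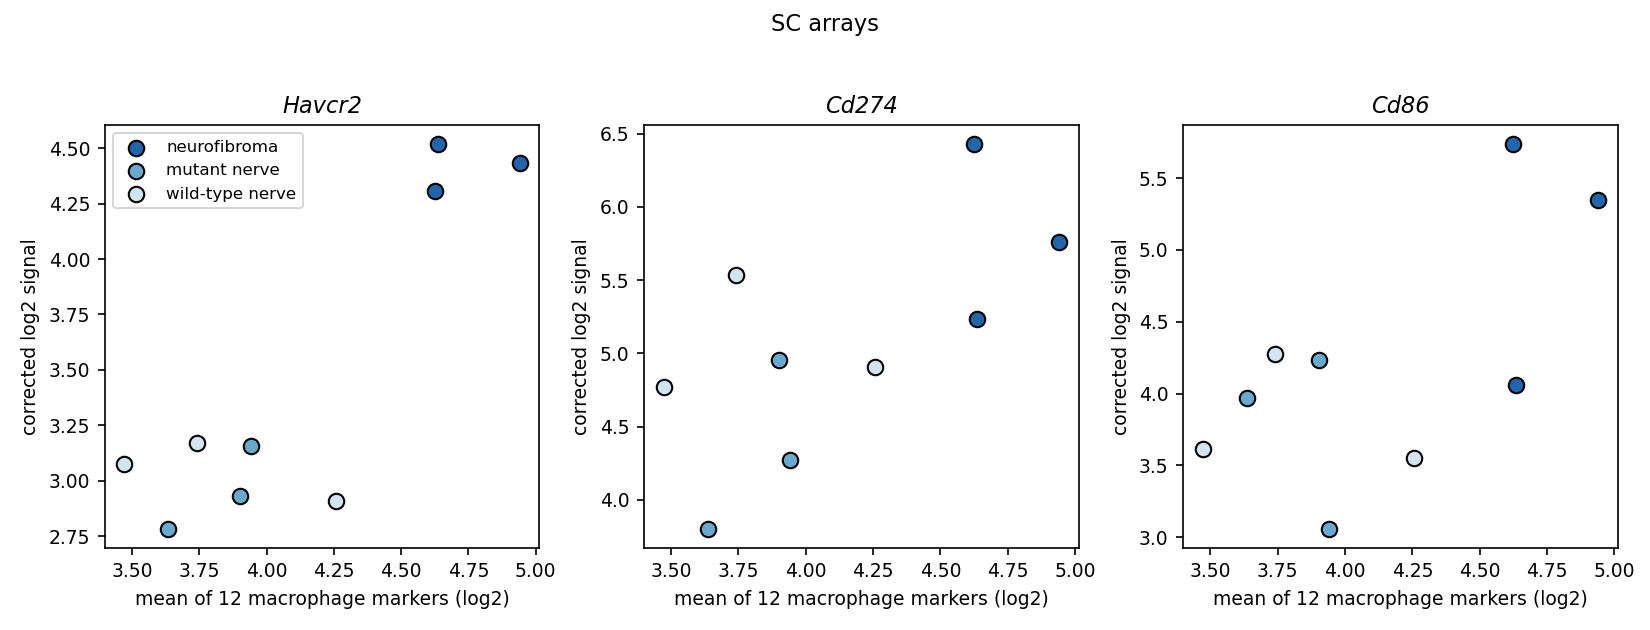
Havcr2, Cd274 and Cd86 (corrected log2, y axes) in the 9 SC arrays against the mean of 12 macrophage markers in the same array (log2, x axis). Neurofibroma arrays sit at 4.63 or above on the x axis and mutant and wild-type nerve arrays at 4.26 or below, and Cd86 of neurofibroma replicate nf1_7m_4486 is at 4.06.

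No member was called between mutant and wild-type nerve at 1 month. Of the 10 genes, 0 were called in macrophages and 0 in SCs, as were 0 of all genes with limma, while 16.5% of all genes in macrophages and 7.30% in SCs had an unadjusted p under 0.05. In macrophages 2 members did, Icosl at 0.56 (95% interval 0.12 to 0.99, adjusted p = 0.205) and Cd40 at -0.41 (-0.74 to -0.07, adjusted p = 0.22). Icosl measured 6.53, 6.67, 6.80, 6.53 and 6.88 in mutant nerve macrophages and 6.41, 5.73 and 6.24 in wild-type nerve macrophages. The groups did not overlap, which held for 4.12% of all genes in that direction. In macrophages all mutant arrays belong to label batch 1 and all wild-type arrays to label batch 2, so genotype and label batch cannot be told apart. In SCs no member had an unadjusted p under 0.05, and the differences ran from -0.73 (Cd274, 95% interval -1.51 to 0.06) to 0.21 (Cd80, -0.84 to 1.26).

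The change from mutant nerve to neurofibroma was also compared between macrophages and SCs. A shift between the array levels cancels there only where it is the same in both cell types. The difference between the control arrays varied with signal, with a median of -0.30 over the clusters of lowest signal and -0.63 over those of highest. None of the 10 genes was called for the difference of changes, beside 2.12% of all genes. That share was 1.38% with quantile normalization and 1.48% with the smooth correction. In corrected values an unadjusted p under 0.05 was found for 3 of the 10 and for 15.5% of all genes. The change was larger in macrophages for Havcr2 (1.11, SE 0.389, adjusted p = 0.147) and Tnfsf9 (0.99, SE 0.367, adjusted p = 0.169), and lower in macrophages for Icosl (-1.001, SE 0.349, adjusted p = 0.144). For Cd86 the difference of changes was 0.42 (95% interval -0.45 to 1.29), for Cd80 0.49 (-0.53 to 1.51) and for Cd274 -0.16 (-1.01 to 0.70).

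In neurofibroma against mutant nerve macrophages, 2.68% of all genes were called higher and 2.29% lower. Of 9 counter-receptors and ligands of these molecules, 0 were called higher and 1 lower there, with a median of -0.12. The one was Cd28, the receptor of CD80 and CD86, at 4.38 ± 0.43 in neurofibroma and 6.07 ± 0.55 in mutant nerve macrophages (difference -1.69, SE 0.318, adjusted p = 0.00131). T cell markers were also lower there, 3 of 9 (Cd3g, Cd4 and Thy1) being called, with a list mean of 2.88 to 3.07 in neurofibroma and 3.26 to 3.61 in mutant nerve macrophages, and their part in the Cd28 result was not tested. Tnfrsf9, the receptor of 4-1BB ligand, was 0.82 higher than in mutant nerve (adjusted p = 0.0217, short of the fold) and 1.41 higher than in wild-type nerve macrophages (adjusted p = 0.00237). Lgals9, the galectin-9 ligand of TIM-3, was at 8.64 ± 0.31, 8.76 ± 0.42 and 9.18 ± 0.30 in neurofibroma, mutant and wild-type nerve macrophages and was not called. Pdcd1 differed from mutant nerve by -0.14 (adjusted p = 0.37), and Ctla4 lay below the first quartile of signal in all 4 neurofibroma macrophage arrays.

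The list of other inhibitory receptors and ligands changed in both directions. Of 22 measured, 2 were called higher and 1 lower in neurofibroma than in mutant nerve macrophages, with a median of -0.10. Of all genes 2.68% were called higher and 2.29% lower there. Lair1, a collagen receptor of leukocytes, was at 5.77 ± 0.32 in neurofibroma and 3.93 ± 0.37 in mutant nerve macrophages (difference 1.84, SE 0.185, adjusted p = 1.44e-05), and its change exceeded that of SCs by 1.65 (SE 0.282, adjusted p = 0.00248). Lag3, an inhibitory receptor that binds MHC class II, was 1.07 higher (SE 0.133, adjusted p = 6.65e-05). Timd4, the phosphatidylserine receptor of resident macrophages, was lower, with a difference of -1.54 (SE 0.447, adjusted p = 0.017). Timd4 and Havcr1 belong to the Tim family with Havcr2 and lie 330 and 259 kilobases beyond it on chromosome 11. Havcr1 was not called (-1.09, SE 0.404, adjusted p = 0.0508). Of Havcr2, Havcr1 and Timd4, the first was called higher and the last lower in the same neurofibroma arrays.

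Beside the remaining lists, 2.68% of all genes were called higher and 2.29% lower in neurofibroma than in mutant nerve macrophages. In SCs these shares were 2.55% and 3.09%. Against wild-type nerve they were 3.36% and 2.89% in macrophages and 2.40% and 4.06% in SCs. CD40 signalling held 1 higher and 0 lower of 7 measured in neurofibroma against mutant nerve macrophages (median 0.45). That gene was Traf1, an adaptor of TNF receptors, at 8.66 ± 0.17 in neurofibroma and 7.09 ± 0.23 in mutant nerve macrophages (difference 1.58, SE 0.128, adjusted p = 2.34e-06). In SCs Relb, a subunit of the noncanonical NF-kappaB pathway, was 1.07 higher in neurofibroma than in mutant nerve (SE 0.195, adjusted p = 0.00685). The other B7 and butyrophilin genes gave 0 of 7 against mutant nerve in either cell type and 1 of 7, Vsir, which encodes the checkpoint ligand VISTA, against wild-type nerve macrophages (1.02, adjusted p = 0.00167). Of 10 other TNF family costimulators, Tnfrsf8 (CD30) was lower in neurofibroma than in mutant nerve macrophages (-1.01, adjusted p = 0.00151). None of these costimulators was called against wild-type nerve macrophages. Tnfsf8 (CD30 ligand) was lower in neurofibroma SCs than in mutant (-1.51, adjusted p = 0.0066) and wild-type nerve SCs (-1.52, adjusted p = 0.0056). It averaged 2.46 in neurofibroma SCs, with 2 of 3 arrays above the first quartile of signal. For single genes outside the 10 members, the other links between the array levels were not compared.

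Between the cell types of neurofibroma, 7 of the 22 genes listed as inhibitory receptors and ligands were called higher in macrophages than in SCs. Of that list 1 was called lower and 14 were not called, with a median of 0.39, beside 5.91% of all genes higher and 6.50% lower. Cd48 was 4.76 higher, Siglece 3.97 higher and Timd4 3.24 higher in macrophages, while Cd200 was lower by a difference of -3.35 (SE 0.463, adjusted p = 8.14e-06). Cd200 encodes a ligand that restrains myeloid cells through the receptor encoded by Cd200r1, and the receptor gene ran the other way, 3.05 higher in macrophages (SE 0.174, adjusted p = 3.2e-11). In mutant nerve these differences were -2.61 for Cd200 and 3.90 for Cd200r1, and in wild-type nerve -2.51 and 3.82. Ceacam1, listed among the ligands of TIM-3, was lower in macrophages than in SCs of neurofibroma (-1.32, adjusted p = 0.00101).

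Over the 21 sorted-cell arrays each called gene had close followers, given as Pearson correlations of corrected values, in which the contrast of the 2 cell types weighs most. Cd86 was followed by Hcls1 (0.99), Ms4a6d (0.989) and Clec4a3 (0.988), and Cd274 by Nampt (0.985), Parp14 (0.98) and Rnf213 (0.973). Havcr2 was followed by Sirpb1a (0.982), Gfpt1 (0.972) and Tspo (0.965), and Cd80 by Tspo as well (0.944), then Stk17b (0.943) and Myo1g (0.941). Cd40 was followed by Ifi205 (0.985), Stap1 (0.98) and Themis2 (0.979). The followers of Tnfsf9 and Tnfsf4 reached only 0.79 (Eml3) and 0.76 (Tnip2).

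Within the 8 macrophage arrays of 1-month-old nerve, which lie on 1 array level, Pdcd1lg2 and Cd80 varied more than Cd86. Pdcd1lg2 was at 6.16 and 5.45 in mutant replicates 14 and 15 and at 5.70 and 5.58 in wild-type replicates 5 and 6, against 5.17, 3.89 and 4.44 in mutant replicates 11, 12 and 13 and 4.37 in wild-type replicate 4. Cd80 was high in the same 4 arrays, at 6.41, 6.32, 6.45 and 6.30, and at 5.70 to 5.83 in the other 4. Tnfsf9 was split in the same way, at 6.26, 6.28, 5.87 and 5.89 against 5.24 to 5.72. Cd274 (6.94 to 8.00), Havcr2 (4.32 to 5.51) and Icosl (5.73 to 6.88) also varied, but without this split. The split was read from these values and follows neither genotype nor label batch. The share of all genes that split in this way was not counted. The same 4 arrays stood apart in markers of other cells. The endothelial mean was 5.09, 5.11, 5.13 and 4.58 in them and 3.58 to 4.15 in the other 4, and the smooth muscle and pericyte mean 4.96, 5.14, 5.53 and 5.17 in them and 3.98 to 4.40 in the other 4. The part of these markers in the spread of Pdcd1lg2, Cd80 and Tnfsf9 was not tested. Cd86 stayed within 8.89 and 9.27 over all 8.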

How the data were processed

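RNA of sorted SCs and macrophages was hybridised to 21 arrays and universal control RNA to 2. The authors deposited log2 RMA values of 41345 transcript clusters, made with Affymetrix Expression Console 1.3.1.187 per the submitters' processing notes. Array signals carry no read depth, and the number of arrays limits the precision. Of the clusters 23521 name 1 gene, 1820 several and 16004 none, and the highest-mean cluster of each gene gave 22180 genes.

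The deposited arrays stood on 2 levels, which were inferred from the values and follow age. They were aligned by ComBat with the level as batch and the groups, universal controls included, as covariates. Differences within a cell type were fitted with limma 3.58.1 in R 4.3.3 over its 3 groups (9 residual degrees of freedom in macrophages, 6 in SCs), and differences between cell types and of changes over all 6 groups (15). A gene was called at a Benjamini-Hochberg adjusted p under 0.05 over 22180 genes and a fold above 2. The code was tested on simulated data.

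All 10 members were named, with up to 4 called genes of each pathway list per comparison by size of change, marker genes whose values stand beside a result, and the 3 genes with the highest correlation to a member. Lgals9, Pdcd1, Ctla4, Havcr1 and Cd200r1, and Tnfrsf9 where it was not called, fall outside this rule and were chosen after their values were seen. The members and lists were chosen with earlier results of these data known. Alternatives were other normalizations and links between the levels, a filter on low values (19522 genes), other fits, the label batch, a replicate block and leaving out arrays. Figures were drawn with Python.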

Additional observations from a re-analysis of the deposited data

Results flagged for a closer look

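Of 20 gene and group combinations in the macrophage groups of 4 and 5 arrays, 2 held an array whose gap to its nearest neighbour was a large share of the whole range by Dixon's criterion, which chance passes in about 1 in 20. Cd86 in mutant nerve macrophage replicate 15 was at 9.25, with the other arrays of that group at 9.16 to 9.18, a gap of 0.7748 of the range. Icosl in neurofibroma macrophage replicate nf1_7m_4486 was at 6.90, with the others at 6.00 to 6.14, a gap of 0.8501 of the range. The Cd86 group spans under 0.1 log2 units in all.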

How the results depend on the processing

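Leaving out genes of low signal, averaging a gene's clusters, or using a trended and robust variance changed none of 100 member results. Quantile normalization without ComBat called 2 members higher between neurofibroma and mutant nerve in macrophages (Havcr2 and Cd80; 3.55% of all genes), 1 higher between neurofibroma and wild-type nerve in macrophages (Havcr2; 4.22%), and 1 lower, Tnfsf9, in SCs in both comparisons, with Havcr2 lost in both and Cd274 lost against mutant nerve (3.77% and 4.84%). With the universal controls and the array level in the fit, 0 were called in all 4 neurofibroma comparisons. The smooth correction by level called 2 higher in macrophages (Havcr2 and Cd80; 3.85%) and 1 lower in SCs (Tnfsf9; 4.33%) against mutant nerve. It called Tnfsf9 alone, lower, in SCs against wild-type nerve (5.39%). The deposited values without correction called 2 in macrophages against mutant nerve (Havcr2 higher and Cd276 lower; 22.8%) and against wild-type nerve (Havcr2 higher and Cd40 lower; 26.3%), and 2 lower in SCs (Cd40 and Tnfsf9) against mutant (24.8%) and wild-type nerve (24.3%). The smooth correction and the deposited values were chosen after seeing the data. In the deposited values Cd274 in macrophages was at -0.096 (adjusted p = 0.685) and Cd40 in SCs at -1.03 (adjusted p = 0.0113) against mutant nerve. The fit of all 6 groups and the label batch term each called 2 in SCs against wild-type nerve (6.86% and 7.01% of all genes). The label batch term called 1 in macrophages against mutant nerve (Havcr2; 5.06%). Without the fold criterion 5 passed in macrophages and 2 in SCs against wild-type nerve (35.4% and 18.3% of all genes).

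Leaving out 1 array at a time gave 4 members in macrophages and 1 to 3 in SCs against mutant nerve, 2 to 4 in macrophages and 1 to 2 in SCs against wild-type nerve, and 5 to 6, 6 to 7 and 5 to 7 between cell types in neurofibroma, mutant and wild-type nerve. Mutant against wild-type nerve and the difference of changes stayed at 0. Macrophage and SC arrays that share a replicate number correlated in their deviations at 0.042 and 0.092, against -0.087 to 0.052 for the other pairs. Both values are above 0 and the labels do not state whether a shared number is a shared animal. A replicate block changed none of 40 member results between cell types, with 5 members called in neurofibroma.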
